A study of Mus musculus with 12 samples.

Results

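The 10 transcripts described here encode the transcription factors of the AP-1 and BATF families: Jun, Junb, Jund, Fos, Fosb, Fosl1, Fosl2, Batf, Batf3 and Atf3. They were taken by gene symbol, 10 of the 23700 loci listed in each expression file, without regard to their values. RNA had been sequenced from primary CD4+ T cells of C57BL/6J mice, taken from spleen and lymph nodes and sorted as naive cells. One wild type library came from naive cells that were not cultured. All others were cultured for 3 days on plates coated with anti-CD3 and anti-CD28, each at 10 μg/ml. Wild type cells gave 1 library each of Th1 (20 ng/ml IL-12 with anti-IL-4), Th2 (20 ng/ml IL-4 with anti-IFN-γ) and Th17 cells (20 ng/ml IL-6 and 2 ng/ml TGF-β1 with both neutralizing antibodies). Induced regulatory T cells (iTreg) were grown with 100 IU/ml IL-2 and 5 ng/ml TGF-β1 and gave 3 libraries of wild type (WT) and 3 of Bach2-deficient (Bach2KO) cells. Binding of the repressor Bach2 was mapped by chromatin immunoprecipitation (ChIP) in 1 library of WT iTreg cells with 1 input. The labels do not say how Bach2 was deleted, how old the mice were, or whether replicates are separate animals, cultures or pools, so p-values measure only the spread between libraries. The naive library alone comes from uncultured cells, so naive state, sorting and the absence of culture cannot be told apart in it.

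AP-1 is a pair of basic leucine zipper (bZIP) proteins, one from the Jun family (Jun, JunB, JunD) joined to another Jun protein or to one from the Fos family (Fos, FosB, Fra-1, Fra-2), which binds the DNA letters TGANTCA. Fos proteins cannot pair with themselves, while BATF and BATF3 pair with Jun proteins and, with IRF4 or IRF8 beside them, act on effector genes of T cells. ATF3 is a stress-induced bZIP factor that also pairs with Jun proteins. T cell receptor signals reach these genes through Ras and the MAP kinases. Bach2 is itself a bZIP factor, pairs with small Maf proteins, binds a longer site in which the same letters follow TGC directly, and represses effector genes in T cells. The comparison of Bach2KO with WT iTreg cells therefore asks how transcripts of proteins that use overlapping sites stand once Bach2 is reduced.

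Expression is in FPKM, the fragments assigned to a gene per length of transcript and scaled by library size, so levels can be set beside each other between genes. Summed FPKM over all loci was 432450 to 437849 in WT and 545183 to 553892 in Bach2KO iTreg libraries, and 303348 in the naive library. Bach2 itself stood at 17.6 ± 0.351 FPKM in WT and 3.81 ± 0.378 in Bach2KO iTreg cells (SD, n = 3 each), so transcript of the targeted gene remained. CD4 T cell markers (Cd3d, Cd3e, Cd3g, Cd4, Lck, Trat1) were present in every library, with a summed level of 1116 to 1440 FPKM. The sum was 1413 to 1440 FPKM in WT and 1116 to 1264 in Bach2KO iTreg libraries. Cd3d, Cd3e and Lck had lower means in Bach2KO and Trat1 a higher one, while Cd3g and Cd4 overlapped between the genotypes. An exon of another gene on the opposite strand overlaps 3 members, Jun (BC042782), Jund (Gm11175) and Fosl1 (Ccdc85b). The labels do not say whether reads were counted by strand, so reads of these pairs may be mixed. In bulk RNA, fewer cells that express a gene and less RNA per cell cannot be told apart.

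The 10 transcripts together were highest in naive cells, lowest in WT iTreg cells, and higher in each Bach2KO than in each WT iTreg library. Their sum was 1553 FPKM in the naive, 413 in the Th1, 542 in the Th2 and 354 in the Th17 library. It was 129, 124 and 138 FPKM in WT and 511, 479 and 486 FPKM in Bach2KO iTreg cells. The Bach2KO sums thus lay between those of the Th1 and Th2 libraries. Of the 10 members, 8 averaged 0.5 FPKM or more across the 6 iTreg libraries and were tested with limma on log2(FPKM + 0.5). Each of the 8 was called higher in Bach2KO and none lower, with no overlap between the replicates of the genotypes. Over all 11473 genes tested, 41% were called higher, 33.6% lower and 74.7% in either direction, and the replicate values of 79.4% did not overlap. Fos, Batf3 and Atf3 were under 0.5 FPKM in every WT library and entered the test only through their Bach2KO values, so they had to differ. The count that does not depend on this is that of Jun, Junb, Jund, Fosl2 and Batf, 5 of 5. The median difference over these 5 was 1.56 on the log2 scale, beside 0.07 over all genes tested.

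**Figure D1:**
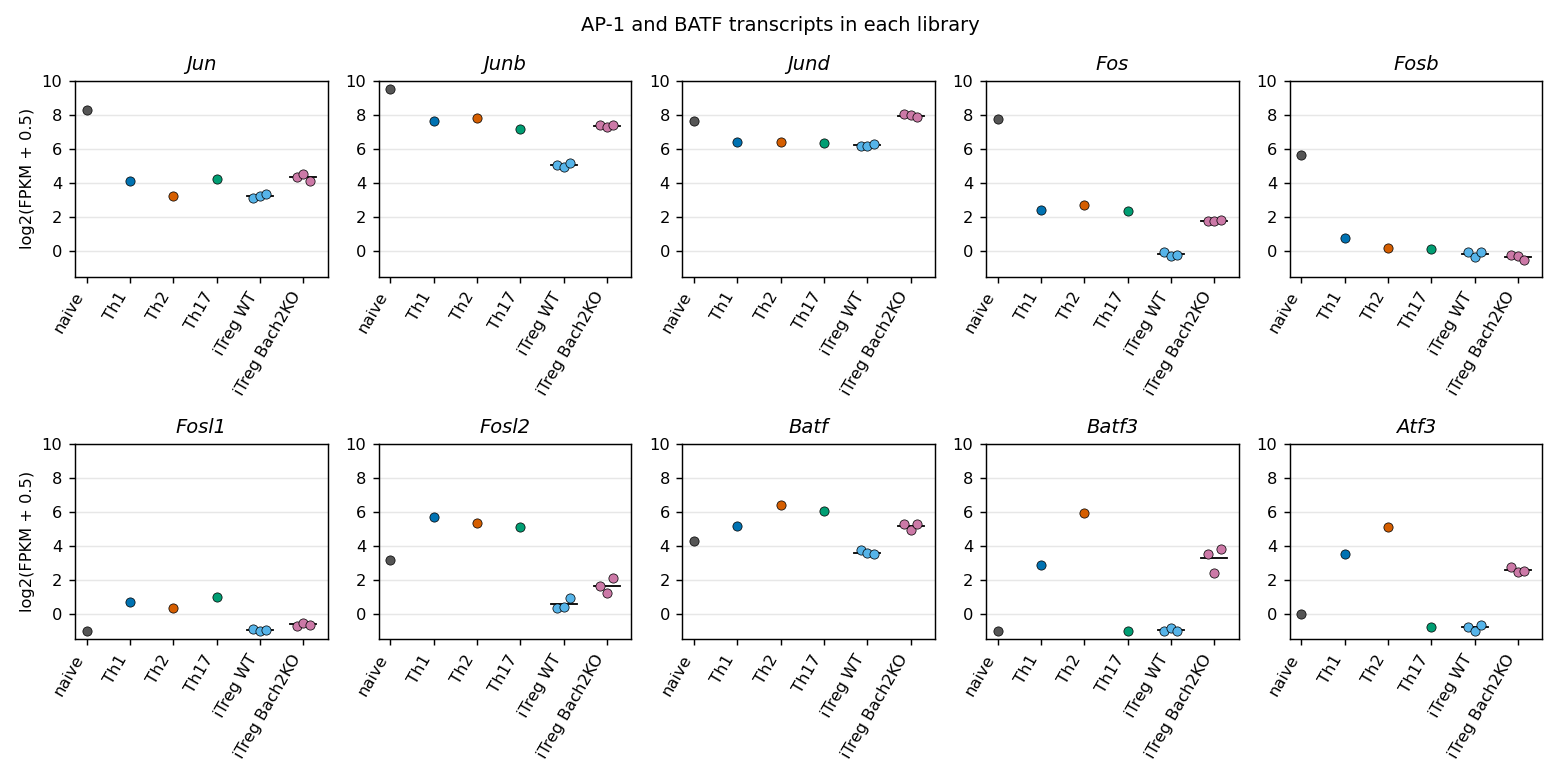
Level of each transcript on the log2(FPKM + 0.5) scale in every library, with 1 point per library and a bar at the mean of the 3 libraries of each iTreg genotype. Jun, Junb, Fos and Fosb are highest in the naive library, Fosl2, Batf, Batf3 and Atf3 in a helper library, and Jund in Bach2KO iTreg cells, while the points at −1 are libraries listed at 0 FPKM.

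Among the Jun family, Junb was the most changed with genotype and Jund the most abundant transcript in iTreg cells. JunB is a Jun protein that partners BATF in effector T cells. Junb (chromosome 8, 87500808 to 87502647, minus strand, mm9) was measured at 737 FPKM in naive cells, and the Th1, Th2 and Th17 libraries held 199.9, 225 and 147 FPKM. In iTreg cells it was at 33.0, 29.9 and 36.3 FPKM in WT and at 167, 155 and 169 FPKM in Bach2KO. The Bach2KO values fell inside the range of the 3 helper libraries, and the WT values lay far below every other library. The rise was 4.95-fold in mean FPKM, or 2.29 on the log2 scale (SE 0.0789, limma, adjusted p = 4.096e-06).

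JunD is the Jun protein often described as steadily expressed and the least dependent on stimulation. Jund (chromosome 8, 73221638 to 73224515, plus strand) stood at 202 FPKM in naive cells and at 84.2, 83.9 and 82.2 FPKM in Th1, Th2 and Th17 cells. In WT iTreg cells it was at 73.0, 72.3 and 79.0 FPKM, close below the helper libraries, and in Bach2KO iTreg cells at 262, 256 and 235 FPKM. It was the only one of the 10 whose Bach2KO values exceeded every other group, the naive library included. The rise was 3.36-fold, or 1.74 on the log2 scale (SE 0.0596, limma, adjusted p = 4.021e-06). The gene overlapping Jund on the opposite strand shares 543 bases with it.

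Jun, the founding member and a substrate of the JNK kinases, showed the smallest change of the 3. Jun (chromosome 4, 94715727 to 94718913, minus strand) had 317 FPKM in naive cells and 16.9, 8.82 and 18.1 FPKM in Th1, Th2 and Th17 cells. It was at 8.21, 8.97 and 9.58 FPKM in WT and at 19.8, 22.9 and 17.2 FPKM in Bach2KO iTreg cells. The WT values surrounded that of the Th2 library and the Bach2KO values that of the Th17 library. The difference between genotypes was 2.24-fold, or 1.11 on the log2 scale (SE 0.114, limma, adjusted p = 2.302e-04). The balance between JunB and JunD transcripts moved as well: Junb was 3.66 times Jund in naive cells and 2.37, 2.68 and 1.79 times Jund in the Th1, Th2 and Th17 libraries. In iTreg cells this ratio was 0.452, 0.413 and 0.46 in WT and 0.636, 0.607 and 0.719 in Bach2KO. Jund thus exceeded Junb in all 6 iTreg libraries and in none of the others.

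Bach2 peaks were found near Jun and Junb and not near Jund. A peak is a region where ChIP tags exceeded the input, and its score is 10 times the −log10 of its p-value as the authors' peak caller gave it. Within 50 kb, Jun had 7 peaks, Junb 6 and Jund none. By comparison, 64.5% of all loci and 84.5% of the loci tested had at least 1 peak in that distance. Of the tested loci, 9.50% had at least as many as Jun and 14.6% at least as many as Junb. At Junb, 3 peaks lay within 7 kb upstream of the start site, at 0.828 kb (score 286, 93 tags), 3.78 kb (score 56.9, 41 tags) and 6.995 kb (score 258, 163 tags). At Jun, one lay 1.038 kb upstream (score 159, 154 tags), in an exon of BC042782, and the strongest lay 50.631 kb downstream of the start site (score 820, 95 tags, 68.1-fold over background) in an intron of Gm12694. The nearest start of a coding gene to that peak is that of Mysm1 and not that of Jun. For the Junb peak at 6.995 kb the nearest start of a coding gene is that of Hook2, 4852 bases away. The 3 stretches printed are the strongest Jun peak, the only window near any of the 10 genes with the full Bach2 and Maf site (TGC, then TGANTCA), and the Junb peak with the most tags. Each is the mm9 sequence read on the minus strand, with matches to TGANTCA (and its extension) in capitals.
Jun, strongest peak, chr4:94668222-94668341: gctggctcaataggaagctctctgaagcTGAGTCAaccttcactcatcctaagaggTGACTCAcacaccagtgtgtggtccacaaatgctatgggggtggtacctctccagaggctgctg
Jun, 11.794 kb upstream, chr4:94730646-94730765: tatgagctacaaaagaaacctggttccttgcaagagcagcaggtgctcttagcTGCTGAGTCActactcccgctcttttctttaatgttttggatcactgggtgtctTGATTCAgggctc
Junb, 6.995 kb upstream, chr8:87509593-87509712: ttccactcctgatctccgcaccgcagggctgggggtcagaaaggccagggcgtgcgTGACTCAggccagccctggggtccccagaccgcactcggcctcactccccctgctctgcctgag
The strongest Jun peak holds TGAGTCA and TGACTCA, the second stretch TGCTGAGTCA and TGATTCA, and the Junb stretch TGACTCA. That second Jun peak was weak, with 16 tags and a score of 70.2.

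The 4 Fos family transcripts were low in iTreg cells of both genotypes, each below every helper library. Fos is the classical immediate early gene, induced within minutes of a signal. Fos (chromosome 12, 86814851 to 86818219, plus strand) had 219 FPKM in naive cells and 4.74, 5.92 and 4.57 FPKM in Th1, Th2 and Th17 cells. It was at 0.469, 0.324 and 0.359 FPKM in WT iTreg cells, which rested on about 28, 19 and 22 reads, and at 2.94, 2.91 and 3.05 FPKM in Bach2KO iTreg cells. The naive library exceeded the WT mean 570-fold. The rise in Bach2KO was 7.73-fold in mean FPKM. On the log2(FPKM + 0.5) scale, which understates changes of low genes, it was 1.98 (SE 0.0927, limma, adjusted p = 1.097e-05). Fos passed the filter only through its Bach2KO values and had to differ.

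Fosl2 encodes Fra-2, a Fos protein known as a regulator of Th17 genes. Fosl2 (chromosome 5, 32438845 to 32460212, plus strand) had 8.33 FPKM in naive cells and 51.8, 40.7 and 33.9 FPKM in Th1, Th2 and Th17 cells. It was at 0.793, 0.843 and 1.41 FPKM in WT and at 2.67, 1.79 and 3.79 FPKM in Bach2KO iTreg cells. All 6 iTreg libraries were below the naive library and far below the helper libraries. The rise was 2.71-fold, or 1.08 on the log2 scale (SE 0.267, limma, adjusted p = 0.0108), the smallest and least certain of the 8, and without WT replicate 1 it was 0.97 with an adjusted p of 0.0387.

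Fosb and Fosl1 were below the filter and were not tested in the main comparison. Fosb, like Fos an immediate early gene (chromosome 7, 19888045 to 19895394, minus strand), had 49.9 FPKM in naive cells and 1.24, 0.624 and 0.59 FPKM in Th1, Th2 and Th17 cells. It was at 0.469, 0.298 and 0.449 FPKM in WT and at 0.358, 0.308 and 0.191 FPKM in Bach2KO iTreg cells. The genotypes overlapped, and Fosb was the only member whose mean was lower in Bach2KO. In a limma fit with no filter it was not called (log2 difference −0.20, SE 0.114, adjusted p = 0.193).

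Fosl1, which encodes Fra-1 (chromosome 19, 5447698 to 5455938, plus strand), was listed at 0 in the naive library and had 1.13, 0.761 and 1.52 FPKM in Th1, Th2 and Th17 cells. It was at 0.0485, 0 and 0.0264 FPKM in WT and at 0.121, 0.193 and 0.142 FPKM in Bach2KO iTreg cells. The Bach2KO values rested on about 4.94, 8.17 and 5.38 reads, so although the groups did not overlap, both were near the limit of detection. In the fit with no filter the log2 difference was 0.31 (SE 0.054, limma, adjusted p = 0.00417). Fosl1 shares 2776 bases with Ccdc85b on the opposite strand.

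Bach2 peaks near the Fos family were uneven and did not follow the order of the levels. Fos had 7 peaks within 50 kb, Fosb 5, Fosl1 2 and Fosl2 1. Of the tested loci, 9.50% had at least as many as Fos, 21.9% as Fosb, 64.9% as Fosl1 and 84.5% as Fosl2. The best peak at Fos was centred 0.117 kb upstream of its start site (score 257, 93 tags, 12.1-fold), and no TGANTCA lay in its 300-base window. Fosl2 had a single weak peak beyond its 3′ end, 64.163 kb from the start site (score 55.2, 20 tags). The peak in an intron of Fosl1, 1.12 kb downstream of the start site, had a score of 1208 (189 tags, 47.0-fold), above 97.5% of all peaks, at a gene with almost no transcript in iTreg cells. It is printed as the strongest peak of the Fos family, on the plus strand, with TGAGTCA in capitals.
Fosl1, intron, chr19:5448798-5448917: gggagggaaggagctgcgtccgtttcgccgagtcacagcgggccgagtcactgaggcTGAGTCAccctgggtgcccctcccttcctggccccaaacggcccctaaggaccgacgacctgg

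BATF, BATF3 and ATF3 transcripts were all higher in Bach2KO than in WT iTreg cells, Batf from a clear WT level and the other 2 from none or almost none. BATF is the partner of JunB and IRF4 in Th17, Th2 and effector Treg programmes. Batf (chromosome 12, 87027670 to 87050037, plus strand, 209.4 kb from Fos) had 18.7 FPKM in naive cells and 35.6, 82.4 and 66.7 FPKM in Th1, Th2 and Th17 cells. It was at 12.7, 11.4 and 10.9 FPKM in WT and at 38.7, 30.2 and 38.1 FPKM in Bach2KO iTreg cells. The WT values were the lowest of all groups and the Bach2KO values surrounded that of the Th1 library. The rise was 3.05-fold, or 1.56 on the log2 scale (SE 0.111, limma, adjusted p = 5.116e-05).

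Batf3, best known for its requirement in cross-presenting dendritic cells and also expressed in helper T cells, was absent or nearly so outside 3 groups. Batf3 (chromosome 1, 192922293 to 192932822, plus strand) was listed at 0 in naive and Th17 cells and stood at 6.77 FPKM in Th1 and 59.9 in Th2 cells. In iTreg cells it was at 0, 0.0635 and 0 FPKM in WT, with 1 read in all, and at 11, 4.88 and 13.8 FPKM in Bach2KO, on about 205, 81 and 215 reads. The Bach2KO values surrounded that of Th1 cells and were well below that of Th2 cells. The log2 difference was 4.21 (SE 0.358, limma, adjusted p = 1.044e-04), and no fold is given against a group at 0. Batf3 passed the filter only through its Bach2KO values and had to differ.

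Because Batf3 is a dendritic cell gene, markers of those cells were read beside it. The list of 7 (Itgax, Flt3, Zbtb46, Xcr1, H2-Aa, H2-Ab1, Cd74) summed to 218, 26.6 and 108 FPKM in WT and to 168, 148 and 145 in Bach2KO iTreg cells. WT replicate 1, with the highest sum, listed Batf3 at 0. The Th1 and Th2 libraries had sums of 128 and 147 FPKM, the Th17 library 18.8 and the naive library 2.49. The defining markers Itgax, Xcr1 and Flt3 were each under 0.6 FPKM in every library, while Zbtb46 rose in Bach2KO from 0.235 to 3.00 FPKM, 1 of the 4 markers tested. The sum of 6 B cell markers was 9.45 to 44.7 FPKM in WT and at most 17.8 FPKM in Bach2KO. Both CD8 T cell markers were called higher, beside 41% of all genes tested. Cd8a stood at 0.0925 FPKM in WT and 2.23 in Bach2KO, and Cd8b1 at 4.91 and 9.19, with 9.29 in the naive library. Itgam, the only myeloid marker tested, fell from 3.70 to 0.143 FPKM. Zbtb46 and Cd8a passed the filter only through their Bach2KO values and Itgam only through its WT values, so they had to differ. What part the Zbtb46, Cd8a and Cd8b1 signals have in the Batf3 result was not tested.

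Atf3, like Batf3, was highest in Th2 cells and lowest or near 0 in Th17 and WT iTreg cells. Atf3 (chromosome 1, 192994176 to 193007212, minus strand) lies 61.4 kb from Batf3, with the ends of the 2 genes facing each other. Naive cells had 0.477 FPKM, and Th1, Th2 and Th17 cells 10.9, 33.9 and 0.0870 FPKM. It was at 0.0892, 0 and 0.139 FPKM in WT and at 6.26, 5.09 and 5.13 FPKM in Bach2KO iTreg cells. The Bach2KO libraries were below both Th1 and Th2 and above naive, Th17 and WT iTreg cells. The log2 difference was 3.38 (SE 0.132, limma, adjusted p = 5.77e-06). Atf3 passed the filter only through its Bach2KO values and had to differ.

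The strongest Bach2 peak near any of the 10 genes was at Atf3. Atf3, Batf and Batf3 had 4 peaks each within 50 kb, a number that 32.1% of the tested loci reached. The Atf3 peak lay between genes, 10.497 kb upstream of its start site, with a score of 1591 (201 tags, 69.2-fold), above 98.7% of all peaks. The strongest one near Batf lay 43.358 kb downstream of its start site (score 1105, 158 tags, 45.1-fold), where the nearest start of a coding gene is that of Mfsd7c, 16461 bases away. At Batf3 the strongest lay in an intron of the gene itself, 4.745 kb downstream of the start site (score 426, 55 tags, 46.3-fold). These 3 are printed because they are the strongest peaks of the transcripts that were lowest in WT iTreg cells beside Fosl1, or, for Batf, of the partner of JunB. Each is on the strand of its gene, with TGACTCA in capitals.
Atf3, 10.497 kb upstream, chr1:193017622-193017741: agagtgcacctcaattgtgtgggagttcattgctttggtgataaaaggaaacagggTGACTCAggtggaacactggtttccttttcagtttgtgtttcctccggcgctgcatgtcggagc
Batf, 43.358 kb downstream, chr12:87070976-87071095: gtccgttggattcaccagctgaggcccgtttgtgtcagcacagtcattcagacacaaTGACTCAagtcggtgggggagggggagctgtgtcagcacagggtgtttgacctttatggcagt
Batf3, intron, chr1:192926971-192927090: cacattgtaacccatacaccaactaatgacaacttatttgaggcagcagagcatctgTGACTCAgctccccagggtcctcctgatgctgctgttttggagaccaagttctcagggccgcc
All 3 carry TGACTCA, as does the Junb stretch above. TGACTCA read on the other strand is TGAGTCA, so the Fosl1 and Jun stretches hold the same site.

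**Figure D2:**
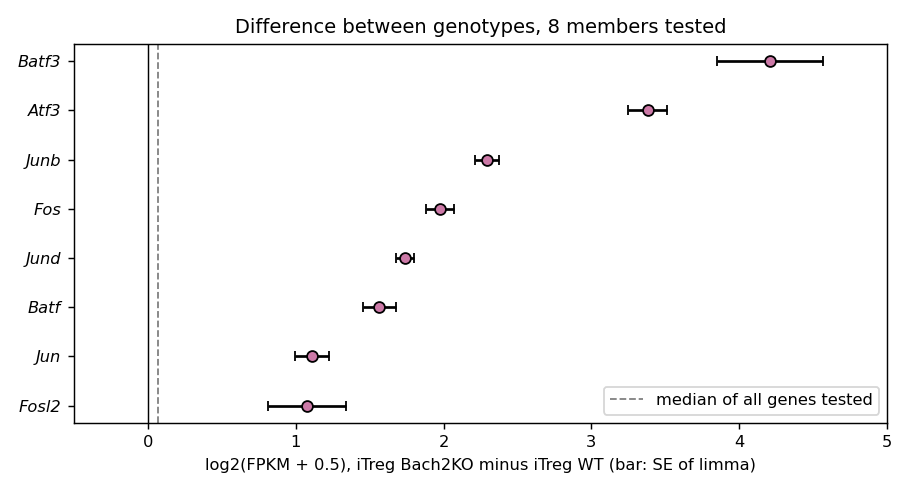
Difference between Bach2KO and WT iTreg cells on the log2(FPKM + 0.5) scale for the 8 tested transcripts, with limma's SE as bars (3 libraries per genotype) and the median of all genes tested as a dashed line. Every point lies to the right of the dashed line at 0.07, from 1.08 for Fosl2 to 4.21 for Batf3. Fos, Batf3 and Atf3 passed the filter only through Bach2KO and had to lie there. The others run from 1.08 for Fosl2 to 2.29 for Junb.

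In its make-up the family had a smaller share of Fos transcripts in iTreg cells of both genotypes than in the other libraries. The share of each transcript was taken as its FPKM over the sum of the 10. Jun family transcripts made up 80.9% of the sum in naive cells and 72.8, 58.6 and 69.7% in Th1, Th2 and Th17 cells. In iTreg cells they made up 88.7, 89.6 and 90.4% in WT and 87.9, 90.5 and 86.8% in Bach2KO. Fos family transcripts were at 17.8% in naive cells and at 14.3, 8.86 and 11.4% in Th1, Th2 and Th17 cells. In iTreg cells they were at 1.38, 1.18 and 1.62% in WT and at 1.19, 1.09 and 1.48% in Bach2KO. The Fos share was thus many times smaller in iTreg cells than elsewhere, and overlapped between the genotypes. Batf, Batf3 and Atf3 together made 1.24% in naive cells and 12.9, 32.5 and 18.9% in Th1, Th2 and Th17 cells. They made 9.96, 9.22 and 8.01% in WT and 10.9, 8.39 and 11.8% in Bach2KO iTreg cells, again overlapping. Within the Jun family the genotypes did not overlap: the Jund share was 57.4 ± 0.830% in WT and 51.0 ± 2.48% in Bach2KO (SD, n = 3 each). The Junb share was 25.3 ± 1.13% and 33.3 ± 1.33%, and that of Jun 6.84 ± 0.438% and 4.06 ± 0.642%. The shares were not tested. In FPKM, the replicate values of 79.4% of all genes tested did not overlap.

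**Figure D3:**
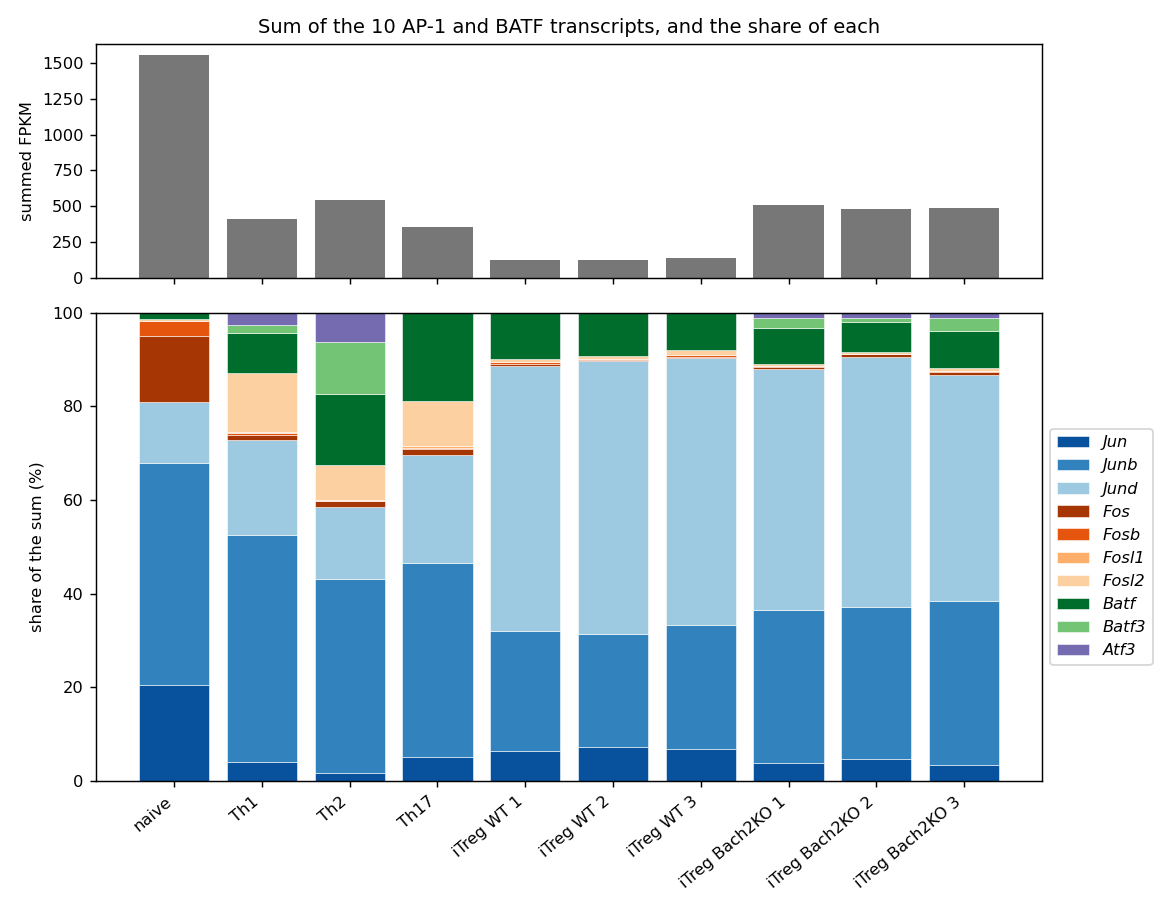
Sum of the 10 transcripts in FPKM (upper bars) and the percentage of that sum made by each transcript (lower bars), with 1 bar per library. The sum is 1553 in naive cells, 124 to 138 in WT and 479 to 511 in Bach2KO iTreg cells, and the 2 genotypes have similar colours despite that gap.

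Set against the naive library, transcripts of the Jun family, Fos and Fosb were lower in every cultured wild type condition, while Fosl2 was lower in WT iTreg cells and higher in each helper culture. These comparisons share the 1 naive library and have no test, and a difference of at least 2-fold among genes averaging 0.5 FPKM or more is counted. In WT iTreg cells 6 of the 7 members that passed were lower and none higher, beside 3.81% of all genes lower and 17.1% higher. In Th1 cells 5 of the 10 were lower and 4 higher, beside 9.87% of all genes lower and 29% higher. Of 9 that passed in Th2 cells, 5 were lower and 4 higher, beside 11.8% and 27.5% of all genes. Of 8 in Th17 cells, 5 were lower and 3 higher, beside 7.53% and 24.4%. Fosl1 and Batf3 were listed at 0 in the naive library. Fosl1 in Th1 and Th17 cells and Batf3 in Th1 and Th2 cells thus passed only through the helper value and had to be higher. Atf3 in Th1 and Th2 cells also passed only through the helper value. Fos and Fosb in WT iTreg cells passed only through the naive value. Fosl2 parted the conditions most clearly: its log2 difference from naive was −2.57 in WT iTreg cells against 2.57, 2.22 and 1.96 in Th1, Th2 and Th17 cells. Batf was at −0.66 in WT iTreg cells and at 0.91, 2.11 and 1.81 in Th1, Th2 and Th17 cells. Junb was lower in all 4, by 4.46 in WT iTreg cells (log2 −4.46) against −1.88, −1.71 and −2.33 in Th1, Th2 and Th17 cells. Jund, in contrast, was at −1.43 in WT iTreg cells, beside −1.26, −1.26 and −1.29 in Th1, Th2 and Th17 cells.

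Bach2 peaks within 50 kb numbered 40 over the 10 loci, with none shared by 2 members. The median was 4 peaks per member, beside 1 over all loci and 2 over the loci tested. Peaks were called by the authors in the 1 ChIP library, without replicates. Of the 300-base windows at the 40 summits, 16 held TGANTCA (40%), at each of the 9 members with a peak, beside 46.0% of all 22494 peaks. The longer site, TGC followed directly by TGANTCA, was in 1 of the 40 windows (2.5%), that of Jun printed above, beside 10.8% of all peaks. TGACGTCA, the site of CREB and ATF factors, was in none of the 40 and in 0.556% of all peaks. Both strands were searched, and every longer site also counts as a TGANTCA. Over all peaks TGANTCA was in 61.4% of the 2249 peaks with the highest scores and in 44.3% of the others, and the 4 peaks near members in that group (Atf3, Fosl1, Batf and Jun) held it. In RefSeq promoters (GRCm38.p6, 250 bases before to 50 after each start), 9 of the 10 members had an entry and none held any of the 3 motifs, beside 7.81% of all promoters for TGANTCA, 0.423% for the longer site and 1.79% for TGACGTCA.

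**Figure D4:**
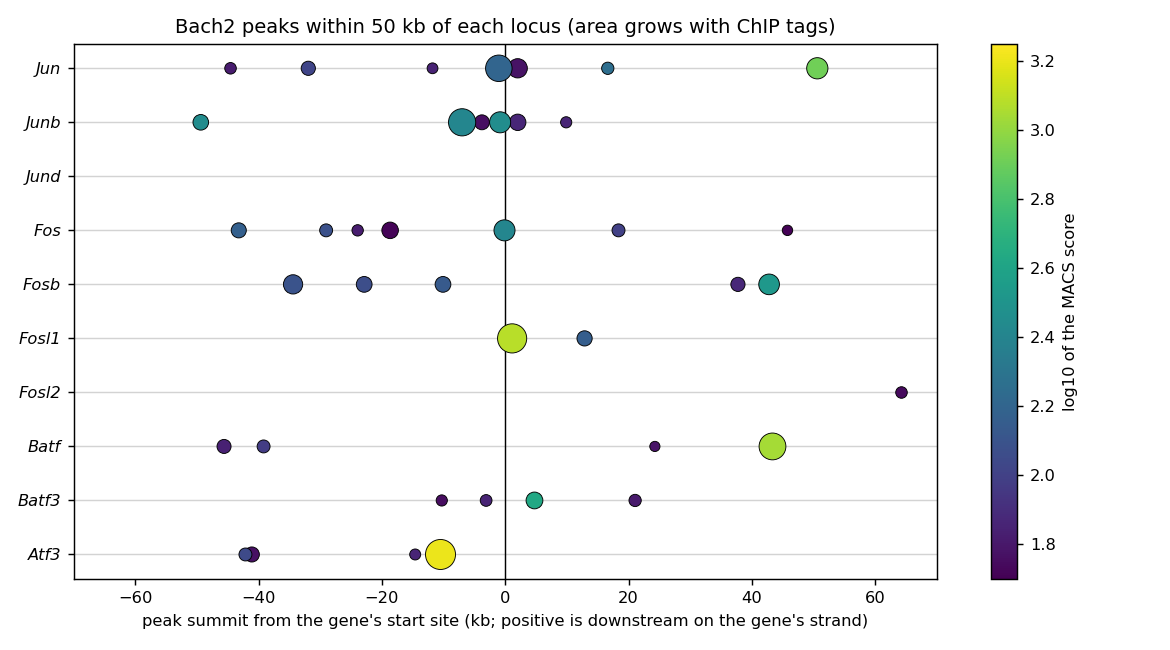
Bach2 peaks within 50 kb of each locus, placed by the distance of the summit from the gene's start site in kb, with negative values upstream, area growing with the ChIP tags of the peak and colour giving the log10 of the score. Jund has no peak, Jun and Fos have 7 each, and the brightest points are at Atf3, Fosl1, Batf and Jun.

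Other genes that work with AP-1 were read from fixed lists in the same limma comparison, where 41% of all genes tested were called higher and 33.6% lower. Among 18 related bZIP genes, 16 were tested, 10 were higher in Bach2KO, 4 lower and 2 not called, with a median of 0.50 on the log2 scale beside 0.07 over all genes. Xbp1, a factor of the unfolded protein response and of secretory cells, rose from 19.1 to 167 FPKM (log2 difference 3.10, SE 0.052, limma, adjusted p = 6.78e-07). Cebpb rose from 1.46 to 9.60 FPKM, Atf4, the main factor of the integrated stress response, from 43.3 to 108 FPKM, and Atf1 from 19.7 to 30.9 FPKM. Ddit3, which encodes the stress factor CHOP, fell from 27.8 to 16.1 FPKM, and the ATF and CREB genes Atf7, Creb1 and Atf2 fell by 0.50, 0.23 and 0.17 on the log2 scale. Rescaling of the libraries left 8 or 9 higher and 4 lower, with Creb3 changing sign when sums were made equal.

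Of 9 factors that bind next to AP-1 or BATF, 4 were higher and 3 lower, beside 41% and 33.6% of all genes tested. Their median was −0.10. Irf4 and Irf8, the partners of BATF on DNA, had the largest differences: Irf4 rose from 14.5 to 87.5 FPKM (2.56, SE 0.127, limma, adjusted p = 1.28e-05) and Irf8 from 20.9 to 137 FPKM (2.69, SE 0.193, limma, adjusted p = 5.295e-05). Stat3 rose from 54.5 to 90.1 FPKM and Nfatc1, a calcium-regulated factor that binds with AP-1, from 39.2 to 45.4 FPKM. Nfatc1 changed sign under quantile scaling and under equal sums, and rescaling left 3 or 4 higher and 5 lower, as did leaving out Bach2KO replicate 3 (4 and 5). Ets1, Smad3 and Runx1 fell by 0.38, 0.27 and 0.18 on the log2 scale.

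The kinases upstream did not share one direction, with a split near that of all genes tested, 41% higher and 33.6% lower. Of 27 Ras and MAP kinase genes 24 were tested, of which 8 were higher, 10 lower and 6 not called, with a median of −0.08, and 5 to 7 were higher and 10 to 14 lower under the rescalings. Map2k3, a kinase of the p38 branch, rose from 19.5 to 46.0 FPKM, and Map2k1, which encodes MEK1, from 30.3 to 49.1 FPKM. Mapk3, Map3k7, Nras and Map2k4 rose by 0.65, 0.33, 0.28 and 0.24 on the log2 scale, Map2k4 changing sign under equal sums. Rasgrp1, the activator that links the T cell receptor to Ras, fell from 132 to 82.8 FPKM, and Map2k7, a kinase of the JNK branch, from 40.3 to 28.3 FPKM.

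Most feedback genes of the same pathway were higher, beside 41% of all genes tested higher and 33.6% lower. Of 13 genes of the Dusp phosphatases, Spry and Spred families 12 were tested, of which 10 were higher, 1 lower and 1 not called, with a median of 0.67. Dusp5 and Dusp6, which act on ERK, rose from 6.88 to 42.2 FPKM and from 6.43 to 19.6 FPKM, Dusp2 from 60.1 to 115 FPKM and Dusp1 from 5.92 to 8.62 FPKM. Spry1, an inhibitor of Ras signalling, fell from 13.9 to 5.38 FPKM (log2 difference −1.40, SE 0.336, limma, adjusted p = 0.00947). Under the rescalings 8 to 10 of the 12 were higher and 1 or 2 lower.

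Of 15 T cell genes with a well known AP-1 or BATF site, 11 were tested, 9 were higher and none lower. Over all genes tested, 41% were higher and 33.6% lower. Il2, Il4, Il9, Il10, Prdm1 and Gzmb, 6 of the 11, had a WT mean under 0.5 FPKM, passed the filter only through Bach2KO and had to differ. Of the other 5, the 3 that were higher were Cd69, Icos and Ccnd2, the last rising from 27.2 to 78.7 FPKM. Il17a stood at 0.992 FPKM in WT and 1.11 in Bach2KO and Ctla4 at 132 and 171 FPKM, and neither was called (adjusted p = 0.91 and 0.209).

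The transcripts whose pattern over the 10 libraries was most like that of a member are given by Pearson's r of log2(FPKM + 0.5), among 7577 genes averaging 5 FPKM or more. Replicates of one genotype lie close together and the naive library often stands far apart, so r describes few independent points. For Jun these were Dnajb1 (r = 0.985), Eif1 and Eif5, and for Fos they were Atn1 (r = 0.978), H3f3a and Dnajb1. Fosb went with Dtx1 (r = 0.987), Ppp1r15a and Hspa1a. Hspa1a, an inducible heat shock gene, was at 176 FPKM in the naive library and at no more than 0.626 FPKM in any cultured one. Junb went with Hspa5 (r = 0.974), Gpr183 and Atf4, and Jund with Tuba4a (r = 0.965), Dynll1 and Pole4. Fosl2 went with Kdm5c (r = 0.988) and Sypl, and Batf with Fam108b (r = 0.987), Senp1 and Tnfrsf8, which encodes the activation receptor CD30. For Batf3 the nearest were Bzrap1 (r = 0.987), Nsmce1 and Cisd3, and for Atf3 they were Cep57l1 (r = 0.990), Cisd3 and Mettl22. Between the members themselves r was 0.971 for Batf3 with Atf3, 0.921 for Jun with Fos and 0.916 for Junb with Fos. Jund was less like any other member, with a highest r of 0.567, with Junb.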

How the data were processed

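RNA of 10 libraries and Bach2 ChIP of 1 library with its input were used. Per the labels, the authors aligned unique 50-bp reads to mm9 with TopHat and made gene values with Cufflinks; the deposited values are FPKM per the file headers, although the file extension names RPKM. For that step the sources used here name no version and no annotation. Peaks were called by the authors with MACS 1.4.0beta from 8992019 ChIP and 9999999 input tags at a p-value cutoff of 1e-05, per the file headers, after Bowtie, per the submitters' processing notes. Tag counts per peak are unnormalized counts as deposited; the deposited score (10 times −log10 of the p-value), the fold enrichment (a ratio) and the FDR in percent are MACS values per the file headers.

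The fit of Bach2KO against WT iTreg libraries (3 each) used R 4.3.3 and limma 3.58.1 (lmFit, eBayes with trend; two-sided) on log2(FPKM + 0.5) for the 11473 genes averaging 0.5 FPKM or more, adjusted by Benjamini-Hochberg over all of them, with a threshold of 0.05; this scale understates changes of low genes. Values under 1e-06 FPKM were set to 0. The fit was first tested on simulated data. The labels give one run date for all samples, so no batch could be separated. The files give no read totals, so reads behind a value were estimated from the deposited confidence interval, whose half-width is 2 Poisson SD, and cover counting error only. Replicate numbers of the labels were not used as pairs, since same-numbered libraries did not deviate together. Locus starts in the expression files count from 0 and were raised by 1. Peaks within 50 kb overlap the extended locus. Motifs and sequences come from the mm9 genome (NCBIM37, GENCODE vM1) and promoters from RefSeq (GRCm38.p6). Named genes besides the 10 members were Bach2, up to 4 called genes per list by smallest adjusted p, genes against a list's majority direction, and the 3 most alike per member. Other genes named, such as Il2, Il10, Cd69, Icos, Ccnd2, Il17a and Ctla4 were named after their values were seen. A few genes that this rule names are not reported here. The members and lists were chosen with earlier results of these data known. Alternatives were other pseudocounts, filters, scalings, a robust fit, a replicate block, leaving out each library, and other peak distances and thresholds.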

Additional observations from a re-analysis of the deposited data

How the results depend on the processing

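Of 276 recomputed values 272 kept their direction and their side of the threshold, or stayed within 1.5 times for counts. All 8 member calls held in each of the 15 alternatives, the highest adjusted p (limma) being 0.0387 for Fosl2 without WT replicate 1. In the main test Fos, Batf3 and Atf3 passed the filter only through their Bach2KO values and had to differ. The calls free of this are those of Jun, Junb, Jund, Fosl2 and Batf. The exceptions were the peak counts: 15 peaks within 10 kb of the members and 75 within 100 kb, 22 with a deposited FDR of at most 1%, and 20 with a score of at least 100, against 40; these follow from the distance and the thresholds themselves. With each iTreg library left out in turn, 7746 to 8644 genes were called (4245 to 4703 higher, 3476 to 3941 lower). With a replicate block 7886 were called (4346 higher, 3540 lower) and the adjusted p of the members was at most 0.00449; same-numbered libraries correlated by −0.046, −0.0341 and 0.0124 in their deviations, so the numbers were not taken as pairs. Scaling moved the split of calls over all genes, from 4709 higher and 3857 lower to 3715 and 4890 with quantile normalization, 4292 and 4315 with equal medians, and 3265 and 5434 with equal sums, where the median of all genes was −0.09, 0.00054 and −0.19. The lowest member difference under these scalings was 0.85 for Jun. A depth of fewer than 10 reads in iTreg cells limits Fosl1, and Fosb and Fosl1 stayed outside the main test.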
